A study of Mus musculus with 12 samples.

Results

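The treatment-naive astrocyte library of this study was examined cell by cell and gene by gene. Its members were the barcodes of that library in which 200 genes or more were seen and no more than 10% of the unique molecular identifiers (UMIs, each standing for 1 captured transcript) fell in mitochondrial genes. The rule kept 1146 of the 2500 deposited barcodes, out of 30775 kept cells in the 12 libraries of the series. The cells came from the brain of a treatment-naive C57BL/6J mouse with no genetic change or treatment in its labels, given as 8 to 12 weeks old. After enzymatic dissociation, live cells negative for CD45 (blood and microglia) and Thy1 (neurons) and positive for ACSA-2 were sorted, where ACSA-2 is an epitope of the sodium pump subunit encoded by Atp1b2. The neuron sort (CD45-, Thy1+, ACSA-2+), the microglia sort (CD45+, CD11b+, CX3CR1+) and blood mononuclear cells from the same naive strain and age served for comparison. The other 8 libraries, of sorted brain cells from transplanted mice, were not compared. All 4 naive groups were 1 library each, so all values below lack a replicate check, and every interval is an exact 95% interval that covers counting error only.

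Astrocytes are the star-shaped glia that tile the brain. They clear glutamate and potassium released at synapses, hold the water channels of the vascular endfeet, are joined by gap junctions, and secrete lipoproteins and matrix. They keep a memory of the brain region in which they arose: forebrain astrocytes carry telencephalic transcription factors, while those of the cerebellum, including Bergmann glia, and of the brainstem carry others.

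The kept cells held a median of 3395 UMIs, 1579 genes and 6.22% mitochondrial UMIs, and summed to 4804709 UMIs. The other naive libraries summed to between 987965 and 3716575 UMIs over 341 to 1274 kept cells. Of the 1354 astrocyte-library barcodes outside the filter, 1353 exceeded 10% mitochondrial UMIs, so membership turned on this limit. Those barcodes held a median of 2598 UMIs, and their values are given beside the results. Between 0 and 4 barcodes were shared with any other library. Malat1, a long noncoding RNA retained in the nucleus, took 16.9% of all UMIs in the kept cells, 3.98-fold its share in the highest other naive library, and 23.6% outside the filter. Its part in the other results was not tested, and in summed values fewer cells of a type and less RNA per cell cannot be told apart.

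The label was borne out by the 6 astrocyte markers. At least 3 of them had a UMI in 1057 of 1146 cells, 92.2% (90.5% to 93.7%), and all 6 in 630 cells. The same count was 1.74% of kept cells in the neuron sort and 0.549% in the microglia sort, where the median depth was lower (425 UMIs). Of the 1057 astrocyte-library cells, 128 also held at least 3 markers of another cell type, with a median of 8 astrocyte-marker UMIs. The other 929 had a median of 49. Levels below are CPM, the UMIs of a gene scaled to 1e6 summed UMIs of its library. Slc1a2, the main glutamate transporter of astrocytes (GLT-1, chr2:102658659-102790784, mm10), stood at 3790 CPM against 22.3 in the neuron sort, 41.5 in the microglia sort and 0 in blood. Aldoc, the aldolase of astrocytes and Purkinje cells (chr11:78322968-78327781), stood at 3081 CPM against 12.1, 47.6 and 9.50. Slc1a3, the second glutamate transporter (GLAST, chr15:8634124-8710764), stood at 2559 CPM against 67.5, 96.2 and 0. All these genes were therefore high in the astrocyte library and low in each of the others, with no value near that of the astrocyte library. Clu, the lipid-carrying clusterin (chr14:65968483-65981547), had 2225 CPM against 13.7, 36.4 and 0.380. Gja1, which encodes the gap junction protein connexin 43 (chr10:56377330-56402513), had 1076 CPM against 1.61, 11.1 and 0. Aqp4, the endfoot water channel (chr18:15389496-15410982), had 658 CPM against 2.96, 9.11 and 0. The ratios to the highest other library ran from 26.6-fold for Slc1a3 (21.8 to 32.9) to 96.7-fold for Gja1 (54.0 to 194).

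Within the astrocyte library, RNA of the sort antigens followed that library's gate for Atp1b2 and Ptprc but not for Thy1. Atp1b2, the gene behind ACSA-2 (chr11:69599736-69605942), had 864 CPM against 7.53, 15.2 and 0, a ratio of 56.9 (34.5 to 102). Ptprc, which encodes CD45, had no UMI among the 1146 cells, where 0 cells allow, at a floor of 3, a share of up to 0.262% of cells with a UMI, against 419 CPM in the microglia sort and 940 CPM in blood. Thy1 stood at 20.6 CPM, 2.46-fold (1.54 to 4.11) above blood, with a UMI in 7.59% of cells. The neuron sort, with a gate given as positive for Thy1 and ACSA-2 protein, had 1.08 CPM of Thy1 and 7.53 CPM of Atp1b2. RNA there thus followed neither of these 2 antigens. At least 3 oligodendrocyte markers were carried by 553 of its 575 kept cells, so comparisons with it are mostly comparisons with oligodendrocytes.

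**Figure D1:**
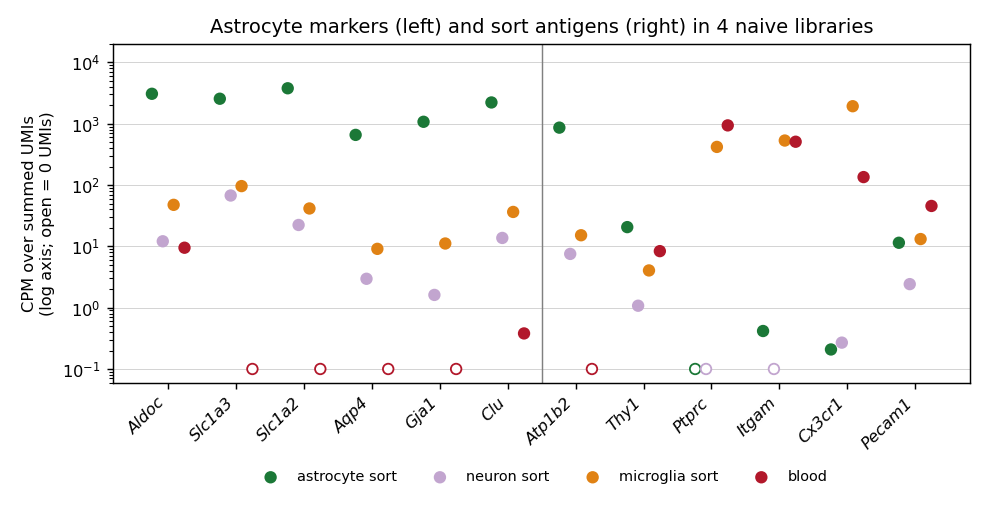
Summed level of each astrocyte marker (left of the line) and sort antigen (right) in the 4 naive libraries, in CPM on a log axis; each point is 1 library and open points mark 0 UMIs. The 6 markers and Atp1b2 lie between 658 and 3790 CPM in the astrocyte library and no higher than 96.2 CPM elsewhere, whereas Ptprc has no UMI there.

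Across the 11371 genes that reached 10 CPM in any naive library, 485 genes (4.27%) were at least 8-fold above the highest of the other 3 libraries. This share is the background for the gene groups below. Those groups were chosen with earlier results of these data known, and several repeat some of the astrocyte markers. Counts above the share are therefore descriptions and no test. A floor of 3 counts per library was set under each value before a fold was called. The highest level among the 485 belonged to Sparcl1, a secreted synapse-organising protein, with 3949 CPM against 46.6 in the microglia sort, 26.9 in the neuron sort and 0 in blood. Plpp3, a lipid phosphatase, had 2907 CPM against 113 in the neuron sort, its highest other library. Mt3, the metallothionein of the brain, had 1940 CPM, and the orphan receptor gene Gpr37l1 had 1798 CPM. The next in level were Dclk1 (1706 CPM), the receptor-type phosphatase and matrix component Ptprz1 (1605 CPM) and the chondroitin sulphate proteoglycan Cspg5 (1377 CPM). The sodium bicarbonate cotransporter Slc4a4 (1307 CPM) and the AMPA receptor subunit Gria2 (1298 CPM) followed. Mfge8, a secreted bridge for phagocytosis, had 1215 CPM, and the acyl-CoA synthetase Acsl3 had 1198 CPM. Also among the 25 highest were Pla2g7, Ttyh1, Ntsr2, Gpm6a, Tspan7 and Bcan, between 906 and 1115 CPM, beside the markers named above. Only 1 of the 25, Vtn, was not spread over the library: its 1454 CPM lay in 14.3% of cells, while the other 24 had a UMI in 74.4% to 97.0% of cells.

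**Figure D2:**
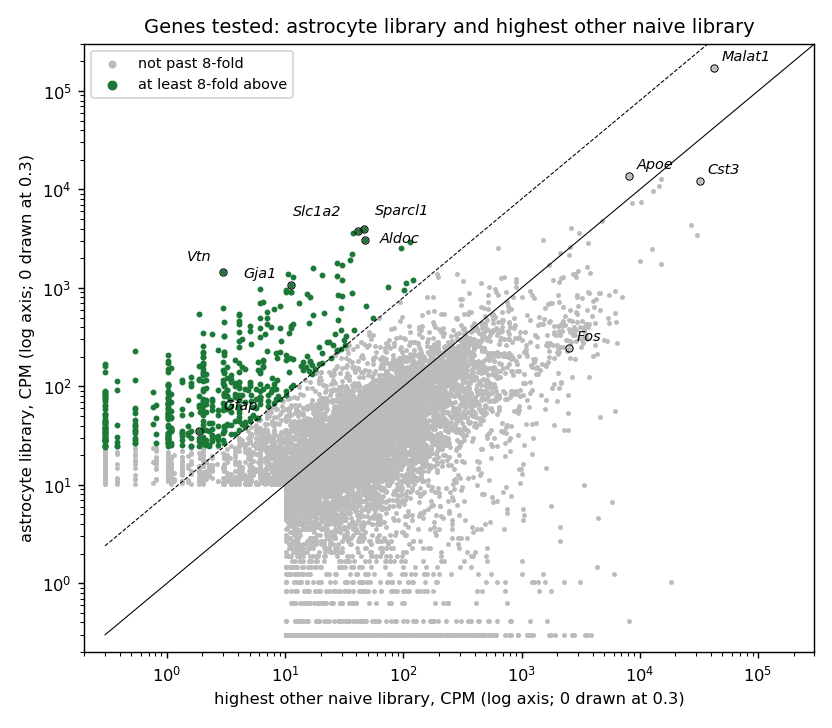
Each point is 1 of 11371 genes, with its level in the astrocyte library (vertical) against its level in the highest other naive library (horizontal), both in CPM on log axes. The 485 genes past the dashed 8-fold line once the floor of 3 counts is set under the other libraries are green. Malat1 lies highest of all, above the solid line of equal level but short of 8-fold, while Cst3 and Fos lie below that line.

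Transport of glutamate and other amino acids was represented by 7 of 15 listed genes past 8-fold, with a median difference of 2.31 on the log2 scale, against -0.53 over all genes tested. Slc7a10, an alanine, serine and cysteine exchanger, had 534 CPM against 0 in the neuron sort, 4.05 in the microglia sort and 0 in blood, a ratio of 132 (51.5 to 485). Glul, the glutamine synthetase that astrocytes share with oligodendrocytes, had 1720 CPM against 1702 in the neuron sort, a ratio of 1.01 (0.978 to 1.04). Slc1a2, Slc1a3 and Slc7a10 thus stood apart from the other libraries while Glul did not.

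Ion and water balance genes numbered 7 of 14 past 8-fold, with a median of 3.50 on the log2 scale. Besides Slc4a4, Atp1b2 and Aqp4, the potassium channel gene Kcnk1 had 327 CPM against 1.35, 3.04 and 0, the largest ratio of the list at 108 (36.8 to 523). Kcnj10, the Kir4.1 channel that buffers potassium, had 158 CPM against 172 in the neuron sort and was not above it. Among gap junctions and cell contacts, 4 of 9 were past 8-fold. Cldn10 had 905 CPM against 11.1 in the highest other library, Gjb6 (connexin 30) had 426 CPM against 4.05, and the adhesion gene Nrcam had 387 CPM against 6.07.

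Energy metabolism split along the list, with 5 of 16 genes past 8-fold and a median of 0.89. Acsbg1, an acyl-CoA synthetase, had 412 CPM against 5.06 in the microglia sort, a ratio of 81.4 (34.8 to 251). Ldhb, a lactate dehydrogenase subunit, had 780 CPM and was 2.59-fold (2.30 to 2.92) above the microglia sort, and the glucose transporter gene Slc2a1 had 145 CPM against 110 in the neuron sort. In lipid and cholesterol handling 6 of 18 were past 8-fold, among them Acsl6 at 360 CPM, 89.0-fold (34.7 to 327) above the microglia sort. Apoe, the main lipoprotein of the brain, had 13670 CPM and a UMI in 99.9% of cells, yet was only 1.68-fold (1.64 to 1.72) above the microglia sort. Scd2, a fatty acid desaturase, was lower than in the neuron sort, with 1489 against 2987 CPM.

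Of 21 glial transcription factors, 9 were past 8-fold, with a median of 2.50 on the log2 scale. Sox9, a factor that sets the glial fate, had 489 CPM against 0.807, 6.07 and 0, and the HLH inhibitor gene Id4 had 612 CPM against 6.73, 8.10 and 1.90. Zbtb20, Id2 and Sox2 were closer to the other libraries, at 1.90-fold, 1.52-fold and 3.75-fold above the highest of them. Of 27 receptors tested (29 listed), 7 were past 8-fold against the highest other library and 20 against the neuron sort. Ntsr2, a neurotensin receptor, had 985 CPM and the largest ratio at 162 (74.5 to 442). Ntrk2, the BDNF receptor TrkB, had 901 CPM against 11.1 in the microglia sort. The sphingosine phosphate receptor gene S1pr1 had 723 CPM and stayed just short of the threshold, at 7.77-fold (6.82 to 8.88) above blood.

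Secreted and matrix genes held the largest share past 8-fold among the lists of 10 or more genes, with 20 of 25 tested (29 listed) and a median of 4.80. Btbd17, a secreted glial protein, had 537 CPM against 4.05 in the microglia sort, a ratio of 133 (51.7 to 487). Htra1, a serine protease, had 1380 CPM and was 4.87-fold (4.57 to 5.21) above the neuron sort. Cst3, the protease inhibitor cystatin C, went the other way: its 12190 CPM were 0.374-fold the 32581 CPM of the microglia sort. Of the redox, metal and thyroid hormone genes 7 of 18 were past 8-fold. Slco1c1, a thyroxine transporter, had 301 CPM, 70.0-fold (43.0 to 123) above the neuron sort. Mt1 (2565 CPM) and Prdx6 (1305 CPM) were 4.04-fold and 6.60-fold above the highest other library, and Gstm5 (879 CPM) 2.46-fold.

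In the opposite direction, 6 genes (0.0528%) were at least 8-fold below the lowest of the other libraries. Ifi27l2a, an interferon-inducible gene, had 3.54 CPM against 43.6 in the neuron sort, 171 in the microglia sort and 420 in blood. Apbb1ip, an integrin adaptor, had 1.67 CPM against 22.9, 327 and 314. Lcp1, a leukocyte actin bundler, had no UMI, with 5.65, 373 and 468 CPM elsewhere. The other 3, Top2a, Hist1h2ap and Pclaf, belong to DNA replication or mitosis and had 0.416 to 0.833 CPM against 6.84 to 87.0 CPM. Ki-67 (Mki67) had 0.624 CPM and a UMI in 0.175% of cells, so dividing cells were near the limit of detection. Against the neuron sort alone, 1247 genes (11.0%) were at least 8-fold above and 170 (1.50%) at least 8-fold below. Without the cells that held markers of another cell type, described next, the genes below numbered 52 and 534, and those above 509 and 1220.

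Markers of other cell types were present in 210 of the 1146 cells, 18.3% (16.1% to 20.7%), each with at least 3 markers of another list, and 128 of these also held at least 3 astrocyte markers. The 2 main groups were cells with oligodendrocyte markers (97 cells, 8.46%) and with mural cell markers (89 cells, 7.77%), the latter the contractile pericytes and smooth muscle of vessels. Endothelial markers marked 20 cells and ependymal or choroid plexus markers 11, against 3 for microglia, 1 for neurons and 0 for oligodendrocyte precursors and blood cells. At a floor of 3 cells, 0 allows up to 0.262% of cells that pass the 3-marker rule. No doublet caller was run, and cells with 2 sets of markers were kept in the main values.

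Of the 89 cells with mural markers, 53 held fewer than 3 astrocyte markers, and these 53 had a median of 2652 UMIs. Vtn (vitronectin), which pericytes of the brain carry, reached 26584 CPM in them against 79.9 CPM in the 929 cells with astrocyte markers alone, and 94.3% of its UMIs lay in the 89 cells. Rgs5, a pericyte regulator of G protein signalling, had 6393 against 3.26 CPM, and Kcnj8, a potassium channel of pericytes, had 1770 against 1.63 CPM. These 3 genes belong to the list that picked the cells, so their levels describe the choice. Atp1b2, the gene of the antigen used for the sort, had 660 CPM in these mural-marker cells and 995 CPM in the cells with astrocyte markers alone, while the cells with endothelial markers had 221 CPM. Vtn, Rgs5, Kcnj8 and Pdgfrb were all past 8-fold above the other libraries in the summed values. Of the 6 mural genes, 5 were tested, and 4 passed with all cells against 2 of 4 tested without the 210 cells.

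The mitochondrial limit altered this make-up. Mural markers marked 7.77% (6.28% to 9.47%) of kept cells but 3 of 1354 barcodes outside the filter, 0.222% (0.0457% to 0.646%). Endothelial markers marked 1.75% (1.07% to 2.68%) and 0.0739% (0.00187% to 0.411%). Ependymal markers had overlapping intervals, at 0.960% (0.480% to 1.71%) and 0.148% (0.0179% to 0.533%), and so did oligodendrocyte markers, at 8.46% (6.92% to 10.2%) and 9.45% (7.95% to 11.1%). Astrocyte markers were met by 92.2% inside and 95.6% outside. Median depth was 3395 UMIs inside and 2598 outside, and its part in these shares was not tested. Within the kept cells the median mitochondrial share was 6.43% in cells with astrocyte markers alone and 4.00% in the 53 mural-marker cells, and the median Malat1 share was 21.5% and 5.30%.

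**Figure D3:**
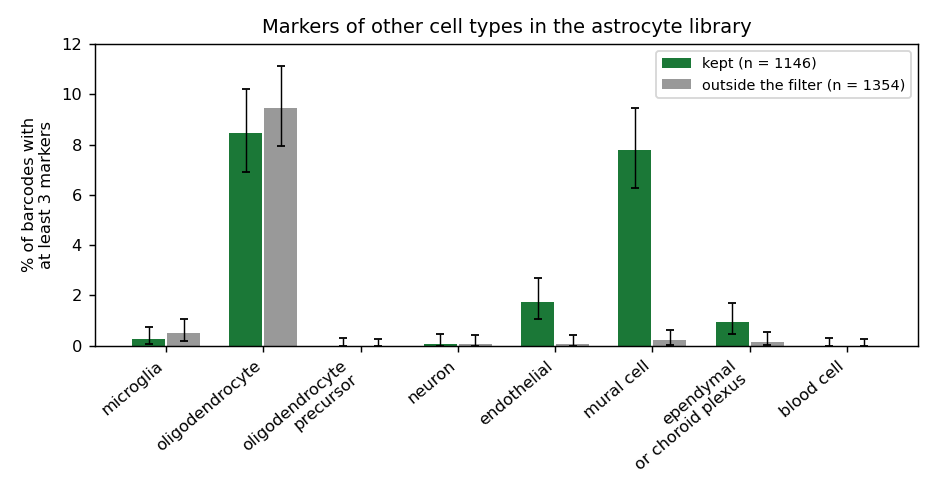
Share of astrocyte-library barcodes with at least 3 markers of each other cell type, for the 1146 kept cells (green) and the 1354 barcodes outside the filter (grey); bars start at 0 and error bars are exact 95% intervals. Mural and endothelial markers are more frequent in the kept cells with intervals apart, and the intervals of ependymal and oligodendrocyte markers overlap.

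Immediate-early and stress genes, which cells switch on within minutes of a stimulus, were lower in the astrocyte library than in the highest other library for 18 of 18 listed genes, by a median of -3.91 on the log2 scale, and none was past 8-fold above it. Of all 11371 genes, 3648 were higher than in every other library, so most genes were not, and their median was -0.53. Fos, the founding member of the group, had 245 CPM against 163 in the neuron sort, 2526 in the microglia sort and 912 in blood. Jun had 292 CPM against 312, 5257 and 395. Both CD45-negative brain sorts were thus below the microglia sort and blood in both genes. Within the astrocyte library the UMIs of these genes were unevenly spread over cells: Fos had 120 CPM in cells with astrocyte markers alone, 1077 CPM in the 53 mural-marker cells and 3453 CPM in the 20 endothelial-marker cells. Klf2, a shear stress factor of endothelium, had 8.97, 608 and 4295 CPM in the same order, and Hspa1a, a heat shock gene, had 12.2, 1361 and 2158 CPM. With each cell drawn down to 2000 UMIs, at least 5 of the 18 genes had a UMI in 1.82% (1.04% to 2.93%) of 881 cells with astrocyte markers alone and in 49.0% (34.8% to 63.4%) of 51 mural-marker cells. Outside the filter Fos stood at 42.1 CPM and Jun at 86.7 CPM.

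Genes listed for reactive astrocytes were also examined. Gfap, the intermediate filament that defines reactive and white matter astrocytes, had 35.0 CPM against 1.88, 1.01 and 0. It had a UMI in 5.48% (4.21% to 7.00%) of 1094 cells at 2000 UMIs, and no cell held more than 4 Gfap UMIs at its own depth. In the mural-marker cells, taken as a type that should lack the gene (median depth 2652 UMIs), the share at 2000 UMIs was 1.96% (0.0496% to 10.4%), an interval that overlaps. At 500 UMIs per cell, which allows the other libraries beside it, the share was 1.92%. Of the 13 genes of the pan-reactive list, 10 were tested and Gfap alone was past 8-fold. Vim had 246 CPM, Hspb1 154 CPM, Cp 52.5 CPM and S1pr3 23.7 CPM, but 57.0% of Hspb1, 61.5% of Cp and 87.7% of S1pr3 UMIs lay in the 89 mural-marker cells. Vim was spread differently, with 5.83% of its UMIs in those cells and 246 CPM in cells with astrocyte markers alone. Lcn2, an acute reactive gene, had no UMI, and Serpina3n had 5.62 CPM against 35.5 CPM in the neuron sort. Of the A1 list 0 of 10 tested and of the A2 list 0 of 7 tested were past 8-fold, and with 4.27% of all genes past it such counts in lists this short are near the background. The median log2 difference of the pan-reactive list, -0.57, was near the -0.53 of all genes. Those of the A1 and A2 lists were lower, at -4.01 and -3.58. The pan-reactive median was not stable: it was -2.85 with TMM scaling factors (9 genes tested) and -2.92 without cells of another type (8 tested). With means of per-cell shares it was -0.38. H2-D1, the class I antigen gene with the highest level of the A1 list, had 82.0 CPM, of which 29.9% of UMIs lay in mural-marker cells. S100a10, highest of the A2 list at 83.5 CPM, was instead spread over cells with astrocyte markers alone (94.1 CPM) and low in mural-marker cells (13.2 CPM).

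Regional identity was read from transcription factors. Each of the 1094 kept cells with at least 2000 UMIs was drawn down to 2000, and cells were grouped by a UMI of any of 3 factors that pattern the telencephalon, among them Lhx2 and Emx2, and of 14 caudal factors of the Irx, En, Gbx and Hox families, which pattern the diencephalon, midbrain, hindbrain and spinal cord. Telencephalic factors alone marked 392 cells, 35.8% (33.0% to 38.8%), caudal factors alone marked 120 cells, 11.0% (9.18% to 13.0%), 12 cells held both, and 570 held neither. A telencephalic factor was found in 12 of 132 cells with a caudal factor, 9.09% (4.79% to 15.3%), and in 392 of 962 cells without, 40.7% (37.6% to 43.9%). The groups are cut from few UMIs and are ranges of cells, not types. Lhx2 had a UMI in 21.6% of cells and Emx2 in 11.2%. Irx5 led the caudal factors with 4.84% of cells, followed by Irx3 (2.83%), Irx1 (2.29%), Irx2 (2.29%), En2 (2.19%) and En1 (0.548%). Gbx2 and the 7 Hox genes, which mark hindbrain and spinal cord, had 0 UMIs in the kept cells. In the summed values all 3 telencephalic factors were past 8-fold above the other naive libraries, and of the 14 caudal factors 5 were tested and Irx5 alone was. En2 was not, with 14.2 CPM against 22.3 CPM in the neuron sort, and cells of another type made up 18 of the 120 caudal and 21 of the 392 telencephalic cells. Median depth before drawing was 3759 UMIs in telencephalic and 3425 UMIs in caudal cells, with median Malat1 shares of 18.4% and 18.3%.

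Slc1a2, Slc1a3, Aldoc and Clu each had a UMI in 82.5% or more of the cells of both groups. Markers of another type were held by 18 of the 120 caudal and 21 of the 392 telencephalic cells. The groups differed in many genes that the grouping did not use. Of 34 readout genes, 6 had a higher share of cells in the telencephalic group and 11 in the caudal group with 95% intervals apart. Among the 3958 genes with at least 50 CPM and 10% of cells in either group, these shares were 4.57% and 5.36%. All 17 differences had the same direction in the barcodes outside the filter, which come from the same library. The cells holding markers of another type were then left out, and the rest were drawn down and grouped anew into 368 telencephalic and 95 caudal cells. Of the 17 genes, 11 still had intervals apart and 6 (Slc1a2, Slc1a3, Clu, Lcat, Fabp7 and S100b) did not. Timp4, higher in the caudal group, had them apart in addition. The parts of the removal, the new draw and the smaller groups in these changes were not tested. The intervals compare cells of 1 mouse, so they say nothing of other animals.

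Mfge8 had the largest difference in percentage points toward the telencephalic group. It had a UMI in 89.0% (85.5% to 91.9%) of telencephalic and 44.2% (35.1% to 53.5%) of caudal cells, and summed levels of 1978 and 401 CPM. Outside the filter the levels were 858 and 349 CPM. Chrdl1, a secreted BMP antagonist of cortical astrocytes, had a UMI in 14.0% (10.7% to 17.9%) against 0.833% (0.0211% to 4.56%). Crym, a thyroid hormone binding protein, had a UMI in 9.95% (7.17% to 13.3%) against 0.833% (0.0211% to 4.56%). These 3 genes were thus seldom or less often seen with a caudal factor. Slc1a2 had a mean of 11.0 UMIs per telencephalic and 4.72 per caudal cell at equal depth, and summed levels of 5849 and 2130 CPM, a ratio of 2.75 (2.58 to 2.92). Clu was 2.16-fold (2.01 to 2.32) higher in the telencephalic group. Slc1a3, the other glutamate transporter, had a UMI in 95.2% (92.5% to 97.1%) of telencephalic and 86.7% (79.3% to 92.2%) of caudal cells, yet its summed levels were 3056 and 3039 CPM, a ratio of 1.01 (0.952 to 1.06), and Aldoc had 3759 and 3854 CPM.

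In the caudal group, Sparc, a matricellular protein, had a UMI in 72.5% (63.6% to 80.3%) of cells against 29.8% (25.4% to 34.6%) of telencephalic cells. A2m, a protease inhibitor, had one in 36.7% (28.1% to 46.0%) against 1.28% (0.415% to 2.95%), and Vim in 39.2% (30.4% to 48.5%) against 9.69% (6.95% to 13.1%). Gdf10, a BMP family ligand and marker of Bergmann glia, had one in 28.3% (20.5% to 37.3%) against 6.12% (3.96% to 8.97%). Agt (angiotensinogen) had one in 43.3% (34.3% to 52.7%) against 23.5% (19.4% to 28.0%). Without the cells holding markers of another type, and with the rest drawn down and grouped anew, the Agt difference was 34.3 percentage points against 19.9. That in Mfge8 was 29.4 against 44.9. How much of these shifts came from the removal and how much from the new draw was not tested. The glycine transporter gene Slc6a9 had a UMI in 26.7% (19.0% to 35.5%) against 7.14% (4.80% to 10.2%). Itih3, Lcat, Fabp7, S100b and Kcnj10 were also higher in the caudal group, by 13.2 to 20.7 percentage points with all cells, of which Itih3 and Kcnj10 kept intervals apart without cells of another type. In the 51 mural-marker cells, used as a background for free RNA, Agt had a UMI in 7.84%, A2m, Gdf10, Slc6a9 and S100b in 1.96% each and Chrdl1 and Crym in 0%. Mfge8 and Sparc had a UMI in 92.2% of them, so for these genes mural-marker cells are no background. Vim had one in 27.5% (15.9% to 41.7%) of them, between its shares in the 2 regional groups. Readouts whose intervals overlapped included Gfap (5.10% and 4.17%), Id3 (29.6% and 27.5%), Slc7a10 (68.6% and 64.2%) and Gja1 (83.2% and 75.8%). Slc6a11, the GABA transporter GAT-3, had 52.8% and 47.5%, a difference with an interval of -5.30 to 15.8 percentage points. Its summed level was nonetheless 1.48-fold (1.30 to 1.68) higher in the caudal group, at 637 against 430 CPM, and 825 against 379 CPM outside the filter.

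**Figure D4:**
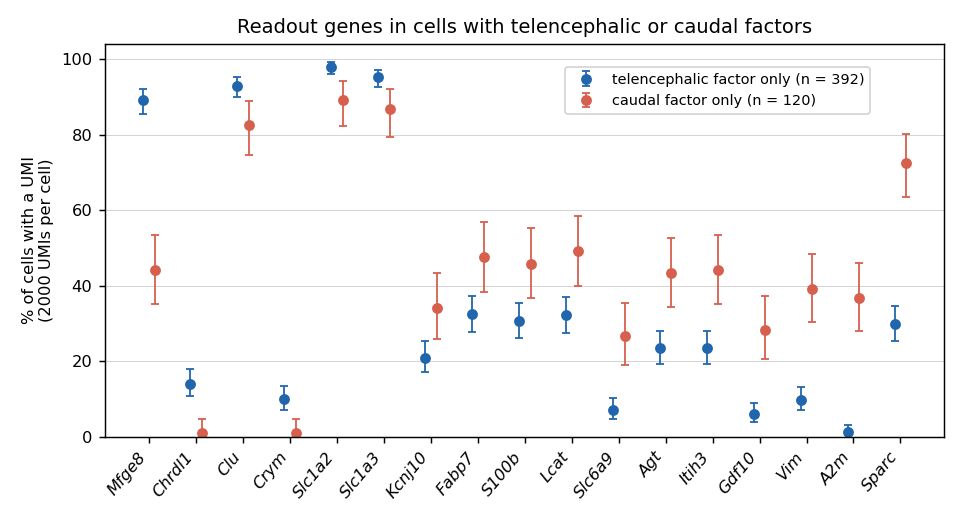
Percent of cells with a UMI of each of the 17 readout genes whose intervals do not overlap, at 2000 UMIs per cell, in the 392 cells with telencephalic factors only (blue) and the 120 with caudal factors only (red); error bars are exact 95% intervals. Mfge8 is at 89.0% and 44.2% at the left, and Sparc at 29.8% and 72.5% at the right.

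Genes beyond the lists were ranked by fold with a floor of 3 counts, which is a higher CPM in the smaller caudal group and so holds telencephalic folds lower. Of the 3958 genes, 54 (1.36%) were at least 4-fold higher in the telencephalic group and 119 (3.01%) in the caudal group. Gria4, an AMPA receptor subunit, had 300 UMIs in the 120 caudal cells and 13 in the 392 telencephalic cells, 537 against 7.99 CPM and a ratio of 67.2 (38.7 to 128). At the cells' own depth it was seen in 46.7% of caudal and 2.55% of telencephalic cells. Mybpc1, a myosin binding protein, had 84 and 4 UMIs, and Syt10, a synaptotagmin, 55 and 2. The next were the calcium channel and AMPA receptor auxiliary gene Cacng5 (64 and 4 UMIs), the tryptophan dioxygenase gene Tdo2 (48 and 3), Cnpy1 (43 and 3), Clec3b (39 and 3), the cadherin Cdh22 (37 and 3), the sulphotransferase gene Ust (34 and 2) and the matrix gene Abi3bp (120 and 11). All 10 had the same direction outside the filter, where Gria4 had 212 UMIs in 175 caudal and 32 in 371 telencephalic barcodes. The genes were picked for the largest folds and those barcodes come from the same library, so a kept direction says little. The share of all 3958 genes that kept direction is not given.

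On the telencephalic side, Gem, a small GTPase, had 108 UMIs in telencephalic and 0 in caudal cells, at least 12.4-fold higher against the floor of 3 counts and 9.89-fold by the lower limit of the exact interval. The orphan nuclear receptor gene Nr4a2 had 153 and 1 UMIs, a ratio of 52.6 (9.29 to 2089). Pde10a, a cyclic nucleotide phosphodiesterase, had 309 against 19.7 CPM, a ratio of 15.7 (8.70 to 31.7), and a UMI in 43.4% against 5.00% of cells. Hapln1, a link protein of the hyaluronan matrix, had 137 against 8.94 CPM and a UMI in 37.8% against 3.33% of cells. Rlbp1, a retinaldehyde binding protein, had 127 and 1 UMIs, and Atp1b1, the neuronal sodium pump subunit, 582 and 18. The others were Dab1, a reelin adaptor (176 and 5 UMIs), the adhesion gene Adam23 (160 and 5), C030018K13Rik (112 and 1) and Pdzph1 (93 and 1). These 10 also had the same direction outside the filter, with the same limits. Of the immediate-early and stress genes, Fos alone had intervals apart, with a UMI in 17.1% of telencephalic and 5.83% of caudal cells. Its means were 0.360 and 0.367 UMIs per cell. Without cells of another type, Fos (15.5% and 3.16%), Jun (18.5% and 2.11%) and Nr4a1 (11.1% and 1.05%) had them apart. The part of cell state in the telencephalic genes was not tested.

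**Figure D5:**
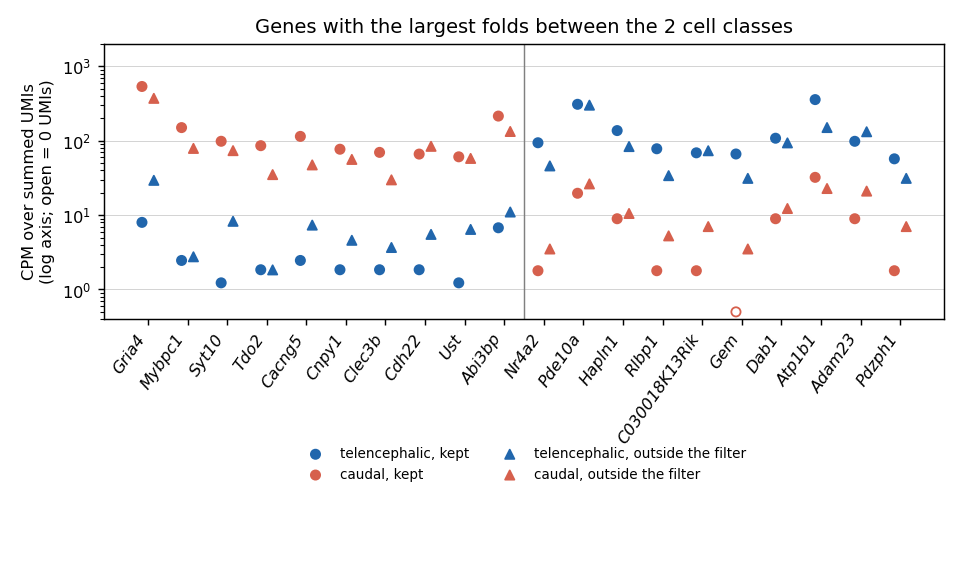
Summed level, in CPM on a log axis, of the 10 genes with the largest fold toward the caudal group (left of the line) and the 10 toward the telencephalic group (right), for kept cells (circles) and barcodes outside the filter (triangles); the open circle marks 0 UMIs. In every gene the red and blue symbols are separated in the same order inside and outside the filter. The genes were picked on the kept cells, and all barcodes come from the same library.

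The DNA before the start sites of 3 of these genes is shown because the levels above set them apart: Mfge8 for the telencephalic group, Gdf10 for the caudal group and C030018K13Rik as the only named telencephalic gene whose window in the table held a TAATTA, a choice made after the matches were seen. Each run is the 250 bases before a RefSeq start site (GRCm38.p6), 5′ to 3′ on the gene's strand, and capitals mark a match to the LHX core TAATTA, the FOX core GTAAACA or the IRX core ACANNTGT on either strand.
Mfge8 (chr7:79149061-79149310, minus strand): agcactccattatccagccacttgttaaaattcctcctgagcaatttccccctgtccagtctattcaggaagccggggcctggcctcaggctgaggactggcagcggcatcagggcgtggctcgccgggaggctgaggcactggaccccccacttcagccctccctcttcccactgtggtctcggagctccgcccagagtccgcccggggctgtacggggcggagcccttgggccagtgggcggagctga
Gdf10 (chr14:33923337-33923586, plus strand): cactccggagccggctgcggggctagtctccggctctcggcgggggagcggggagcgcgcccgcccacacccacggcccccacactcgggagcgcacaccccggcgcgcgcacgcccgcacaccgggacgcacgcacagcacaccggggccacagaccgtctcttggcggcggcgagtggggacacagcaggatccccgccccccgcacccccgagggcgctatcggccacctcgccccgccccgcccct
C030018K13Rik (chr5:64476758-64477007, plus strand): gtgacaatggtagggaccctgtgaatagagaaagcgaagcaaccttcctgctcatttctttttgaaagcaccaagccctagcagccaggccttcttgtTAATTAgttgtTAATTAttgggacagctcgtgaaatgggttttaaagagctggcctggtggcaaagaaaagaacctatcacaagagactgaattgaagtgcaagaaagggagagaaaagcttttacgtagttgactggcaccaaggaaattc
The last holds TAATTA at 2 places, the first and second hold none of the 3, and their GC content was 65.2% for Mfge8, 78.8% for Gdf10 and 43.6% for C030018K13Rik. Of the genes at least 4-fold higher in the telencephalic group, 41 of 54 had such a window, and TAATTA was in 5 of them (12.2%), GTAAACA in 4 (9.76%) and ACANNTGT in 2 (4.88%). Of the 119 caudal genes, 89 had a window, with 4 (4.49%), 1 (1.12%) and 2 (2.25%). Over all 3153 genes of this comparison with a window the shares were 2.95%, 2.63% and 3.65%. These are matches of letters in short windows and no measure of binding.

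Readouts also varied together within the cells that held astrocyte markers alone, 881 cells at 2000 UMIs. These pairs were chosen after their values were seen. A2m had a UMI in 46.3% (36.6% to 56.2%) of the 108 cells with Gdf10 and in 5.95% (4.39% to 7.86%) of the other 773. Vim had one in 58.3% and 11.4%, and Hopx, a homeodomain-only protein, in 60.2% and 27.7% of the same cells. Agt did not follow Gdf10, with 25.9% (18.0% to 35.2%) and 36.1% (32.7% to 39.6%). Agt went instead with Slc6a11, which had a UMI in 73.9% (68.7% to 78.8%) of 307 cells with Agt and 44.3% (40.1% to 48.4%) of 574 without, and with Sparc, at 69.4% and 32.6%. Of the 108 cells with Gdf10, 28 also held Agt. On the telencephalic side Mfge8 had a UMI in 94.4% (86.4% to 98.5%) of 72 cells with Chrdl1 and in 73.2% (70.0% to 76.2%) of the other 809. Crym was no more frequent in the cells with Chrdl1 (5.56%, 1.53% to 13.6%) than in the rest (6.92%, 5.27% to 8.90%). Among immediate-early genes, Junb had a UMI in 23.6% (15.2% to 33.8%) of 89 cells with Fos and in 3.03% (1.95% to 4.48%) of the others.

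The markers used to name the cells also varied among them. Over the 881 cells at equal depth, Slc1a2 ranged from 0 to 34 UMIs with a median of 8 (quartiles 5 and 12), Aldoc from 0 to 31 with a median of 5 (2 and 10) and Clu from 0 to 34 with a median of 4 (2 and 7). Aqp4 had a median of 1 (0 and 2) and a UMI in 63.8% of these cells. Of genes that neural stem cells carry, Egfr had a UMI in 11.3% of cells and Thbs4 in 0.366%. Dcx, a marker of young neurons, had one in 0 of 1094 cells, which at a floor of 3 cells allows up to 0.274% of cells with a UMI at this depth.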

How the data were processed

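Single-cell libraries were made with a 10x Genomics 3′ kit and sequenced on an Illumina NextSeq. The authors deposited UMI counts per gene and barcode, not normalised, made with Cell Ranger 3.1.0 on mm10 per the file headers and the submitters' processing notes. Kept barcodes (200 genes or more, mitochondrial share no higher than 10%) were summed by library and scaled to CPM. Kept totals ran from 987965 to 4804709 UMIs. With 1 library per group no test was run: ratios carry exact binomial and levels exact Poisson or Clopper-Pearson 95% intervals, for counting error only. Genes at 10 CPM in any naive library were compared, with a floor of 3 counts per library and an 8-fold call. A cell held a type's markers when at least 3 of that list had a UMI. Shares within the library used cells drawn down to 2000 UMIs (seed 1), those across libraries 500. Summed levels of the regional groups used all UMIs of the grouped cells. No doublet caller was run.

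Named were the markers and sort antigens, the 25 highest genes called above, up to 10 called below, up to 5 of each list (the 4 highest and the largest fold; regional, reactive, immediate-early and quality lists in any number) and the 10 largest folds each way between regional groups outside the lists. Some genes that this rule names are not reported here. Members and lists were chosen with earlier results of these data known. Coordinates are from GENCODE vM21 (GRCm38, the build of mm10), and promoter windows from RefSeq, where 25 of 33 genes sought had one. Python 3.11.15, scipy 1.17.1 and, for TMM factors only, edgeR 4.0.16 were used. The fold-calling code was checked on simulated counts drawn from the same profile for all 4 libraries, with 16-fold changes set in. That checks the code and not the calls in these libraries of unlike cells.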

Additional observations from a re-analysis of the deposited data

How the results depend on the processing

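Of the summary values under their alternatives, 45 moved and 68 did not, and of the single-gene values 105 moved, 1 reversed and 527 did not. The cause was not tested unless the setting's own construction shows it. No paired analysis was possible because each group was 1 library and no test was run. At 16-fold, 259 genes lay above and 1 below all other libraries, and 813 above and 21 below the neuron sort. At 4-fold the counts were 936 above and 38 below all others and 547 below the neuron sort. A minimum of 50 CPM left 607 above and 110 below the neuron sort, and libraries drawn down to the smallest total 811 above it. A stricter filter (500 genes, 5% mitochondrial) left 388 astrocyte-library and 23 neuron-sort cells. It gave 140 genes above and 364 below all others, and 186 above and 1299 below the neuron sort. The floor of 3 counts was then 19.4 CPM in the neuron sort and 1.97 CPM in the astrocyte library. A tested gene with no UMI in either was therefore called below the neuron sort, so these counts partly reflect the floor. The same filter gave 85.8% with astrocyte markers, 22.9% with markers of another type and 4% with Gfap. All deposited barcodes gave 94.0%, 14.0% and 10 genes below. Means of per-cell shares gave 15 and 382 genes below. Without cells of another type, 52 and 534 genes lay below and 99.3% of cells had astrocyte markers. With the remaining cells drawn down and grouped anew, 41.5% had telencephalic factors. The Mfge8 and Agt differences were then 29.4 and 34.3 points. At least 4 markers of a list gave 14.9% of another type, and 2 UMIs of each of 3 astrocyte markers 81.6%. At 500 UMIs, 62.8% had astrocyte markers and 1.92% Gfap. At 1000 UMIs, 24.3% had telencephalic and 8.20% caudal factors, and 2.88% Gfap. At own depth these were 45.1%, 16.1% and 10.6%, with a Mfge8 difference of 21.3 points. With at least 2 UMIs they were 16.4%, 3.47% and 0.914%, and the Slc1a2 share difference reversed to -0.559 points. With 1 of the 3 telencephalic factors left out the telencephalic share was 23.8%, 27.4% or 31.3%. Leaving out En2, chosen after seeing the data, gave 9.60% caudal cells and differences of 42.4 (Mfge8) and 23.3 points (Agt). The median log2 difference of all genes against the highest other library shifted by -0.20 with TMM factors, -0.19 with per-cell means, 0.14 without mitochondrial and ribosomal genes and -0.14 with the stricter filter, and against the neuron sort by -0.20, -0.03, 0.20 and -0.51.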
